A study of Mus musculus with 6 samples.

Results

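The noncanonical imprinted genes described here are 7 mouse genes, Sfmbt2, Gab1, Slc38a4, Smoc1, Jade1, Runx1 and Mbnl2, picked by name as genes whose maternal copy is silenced by H3K27me3 and found in the count table by their Ensembl IDs. They are 7 of 37991 gene IDs in the table, and 7 of 7 passed the count filter, Runx1 only narrowly, to be among the 16420 genes tested. The libraries came from primordial germ cell-like cells (PGCLCs), in vitro counterparts of the founder cells of the germ line, made from C57BL/6 embryonic stem cells through 2 days as epiblast-like cells and collected on day 4 of PGCLC induction. The 3 Ezh2 KO libraries (genotype Ezh2-/-, CreERT2) were from aggregates that received 4-hydroxytamoxifen in ethanol at the start of PGCLC induction, and the 3 Ctrl libraries (Ezh2f/f, CreERT2) were from aggregates that received ethanol. Both groups therefore carried the tamoxifen-dependent Cre, and both were grown with BMP2, SCF, LIF and EGF, sorted and sequenced as RNA. Only the Ezh2 KO group received 4-hydroxytamoxifen, so effects of the drug, of active Cre and of Ezh2 loss cannot be told apart. The Cre promoter, the sorting gate and the number of stem cell clones are not stated in those labels. Whether replicates were separate inductions is not stated either, and each p-value therefore reflects sample-to-sample spread that may be partly technical.

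Ordinary imprinting rests on DNA methylation laid down in one parent's germ cells, whereas noncanonical imprinting rests on H3K27me3 that the oocyte leaves on the maternal copy. Polycomb repressive complex 2 (PRC2) writes that mark, with Ezh2 as its main methyltransferase. In the mouse the maternal copy stays silent in the early embryo, and for a few of these genes, Sfmbt2, Gab1, Slc38a4, Smoc1 and Jade1 among them, monoallelic expression is kept in extraembryonic tissue such as the placenta, while it is largely lost in the embryo itself. The counts here are totals per gene from an inbred background, so maternal and paternal transcripts cannot be told apart, and a gene's level says nothing of its imprint.

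Start-site sequences were matched in RefSeq (build GRCm38.p6) for 6 of the 7 genes, as 14 windows of 300 bases that run from 250 bases before to 50 bases after a start. No window was matched for Smoc1. The 4 windows printed are both starts of Sfmbt2, the gene whose groups were set apart in these data, and windows of Jade1 and Slc38a4 that lie near the ends of the range of CpG content. Capitals mark CpG dinucleotides, the sites of DNA methylation and a feature of many polycomb-bound promoters.
Sfmbt2 upstream start (chr2:10370201-10370500, plus strand): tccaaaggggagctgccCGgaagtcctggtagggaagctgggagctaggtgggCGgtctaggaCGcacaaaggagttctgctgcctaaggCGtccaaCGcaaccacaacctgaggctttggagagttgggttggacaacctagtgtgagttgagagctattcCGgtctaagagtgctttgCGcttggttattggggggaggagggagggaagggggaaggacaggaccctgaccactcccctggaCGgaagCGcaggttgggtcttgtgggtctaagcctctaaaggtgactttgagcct
Sfmbt2 downstream start (chr2:10372186-10372485, plus strand): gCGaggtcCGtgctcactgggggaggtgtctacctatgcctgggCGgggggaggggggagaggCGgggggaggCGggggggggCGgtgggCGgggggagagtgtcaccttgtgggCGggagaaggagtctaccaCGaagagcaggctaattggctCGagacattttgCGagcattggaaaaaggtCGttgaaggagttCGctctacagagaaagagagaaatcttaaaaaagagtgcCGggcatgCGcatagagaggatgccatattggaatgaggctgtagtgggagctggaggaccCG
Jade1, the third of its 4 starts (chr3:41563501-41563800, plus strand): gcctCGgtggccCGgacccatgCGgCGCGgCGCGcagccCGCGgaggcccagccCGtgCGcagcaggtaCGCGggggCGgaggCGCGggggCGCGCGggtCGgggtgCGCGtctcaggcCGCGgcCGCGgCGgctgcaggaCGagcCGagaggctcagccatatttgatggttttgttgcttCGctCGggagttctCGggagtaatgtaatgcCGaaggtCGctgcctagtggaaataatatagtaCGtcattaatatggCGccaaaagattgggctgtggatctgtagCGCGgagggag
Slc38a4, the most upstream of its 3 starts (chr15:97055907-97056206, minus strand): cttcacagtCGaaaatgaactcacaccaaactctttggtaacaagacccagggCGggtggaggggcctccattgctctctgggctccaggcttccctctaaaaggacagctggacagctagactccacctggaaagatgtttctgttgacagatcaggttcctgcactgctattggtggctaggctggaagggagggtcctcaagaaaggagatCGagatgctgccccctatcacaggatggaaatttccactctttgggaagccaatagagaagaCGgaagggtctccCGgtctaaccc

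The windows differed widely in CpG content. The Sfmbt2 windows held 9 and 16 CpGs, more than 54.2% and 67% of all 32851 windows, whose median was 7. The printed Jade1 window held 38, more than 95% of all windows, and its other starts held 14 to 25. The overlapping Gab1 windows held 26 and 28. Each of the 3 Slc38a4 windows held 5, and the single Mbnl2 window held 10. Runx1, which has a distal and a proximal promoter, held 2 at the distal start and 35 at the proximal start. The motif GCCATNTT (N is any base; searched on both strands, overlaps counted), the core of the site bound by YY1, was present in 4 of the 14 windows: the downstream Sfmbt2 start, 1 of the Gab1 windows, 1 of the Slc38a4 windows and the printed Jade1 window, which held 2 matches. It was present in 6.05% of all windows. YY1 is a DNA-binding partner of SFMBT proteins; a match describes letters in a window and not a bound site, and the motif was chosen after the sequences were seen.

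Total counts ran from 27072150 to 38643944 in Ezh2 KO libraries and from 27358959 to 49382146 in Ctrl libraries. Levels below are CPM, read counts per unit of library size after scaling between libraries by TMM (trimmed mean of M-values), and fold changes are Ezh2 KO over Ctrl. Ezh2 itself stood at 40.8, 67.1 and 70.0 CPM in Ezh2 KO replicates 1 to 3, against 91.8, 78.1 and 95.3 CPM in Ctrl replicates 1 to 3. The groups did not overlap, with Ezh2 KO lower, yet its transcripts were still abundant (log2 fold change -0.58 ± 0.23 SE, edgeR adjusted p = 0.976). A count over the whole gene may include exons outside the deleted part, so it does not measure loss of the enzyme. How completely the gene was deleted in these cells was not tested. Libraries of the same group lay far apart on the first principal component, which held 55.5% of the variance, and its extremes were Ezh2 KO replicate 2 and Ctrl replicate 1. Deviations of same-numbered libraries from their group means correlated at 0.58, 0.37 and 0.19 in pairs 1 to 3. Ezh2 KO replicate 2 with Ctrl replicate 3, which differ in number, reached 0.30. The labels state no pairing, and fits with the replicate number as a block are given where they change a call. All 10 PGC markers looked for passed the count filter, as did 11 of 12 trophoblast markers, so passing it does not establish cell identity. Of the 10, 3 had log2 fold changes above 0 and 7 below, with a median of -0.20. Among them Tfap2c stood at 278.8, 143 and 257.8 CPM in Ezh2 KO and 308.3, 315 and 277 CPM in Ctrl. Prdm1, the inducer of germ cell fate, stood at 3.08 to 5.68 CPM in Ezh2 KO and 4.78 to 7.24 CPM in Ctrl.

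Of the 7 genes, Sfmbt2 alone had levels that did not overlap between the groups. Sfmbt2 (ENSMUSG00000061186) encodes a polycomb group protein with MBT domains, which bind methylated lysines of histones, and is needed for the mouse placenta. It stood at 87.2, 119 and 131.5 CPM in Ezh2 KO replicates 1 to 3, against 37.2, 64.2 and 53.4 CPM in Ctrl replicates 1 to 3. The lowest Ezh2 KO library was 1.36 times the highest Ctrl library, while libraries of one group differed by up to 1.51 times in Ezh2 KO and 1.73 times in Ctrl. The means were 113 ± 22.9 CPM in Ezh2 KO and 51.6 ± 13.6 CPM in Ctrl (SD, n = 3 each), a 2.18-fold difference with a 95% interval of 1.47 to 3.24. A lack of overlap in either direction was seen in 8.09% of all tested genes, and with Ezh2 KO higher in 4.07%.

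In edgeR's quasi-likelihood test across all genes the difference in Sfmbt2 did not pass adjustment (log2 fold change 1.13 ± 0.25 SE, unadjusted p = 0.0018, the tenth smallest, with adjusted p = 0.976). That test called 0 genes in all (0%) and 0 of the 7, with 459 genes (2.8%) at an unadjusted p under 0.05, 254 of them (1.55%) higher in Ezh2 KO. Among the 7 only Sfmbt2 was at that level. On its CPM an exact two-sided permutation test had p = 0.1, which is the lowest value possible with 3 libraries a group. With the replicate number as a block, DESeq2 called Sfmbt2 (log2 fold change 1.13 ± 0.22 SE, adjusted p = 0.000716) as 1 of 50 genes (0.281% of those it tested), while edgeR with the block did not (adjusted p = 0.158, range over all alternatives 0.000716 to 1.00). DESeq2 without the block called 5 genes (0.02%) and limma-voom 0, and neither called any of the 7. In each same-numbered pair Sfmbt2 was higher in Ezh2 KO, which the lack of overlap fixes for any pairing. The ratios were 2.34, 1.86 and 2.46 in pairs 1 to 3. In the same pairs the Ezh2 count stood at 0.444, 0.859 and 0.735 times Ctrl. Of 5247 genes with a mean log2 CPM over 5, 7 (0.133%) had a log2 fold change of at least 1, and Sfmbt2 had rank 5 among them. These cuts were not part of the planned tests and Sfmbt2 lies above both, so the rank is only a description.

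**Figure D1:**
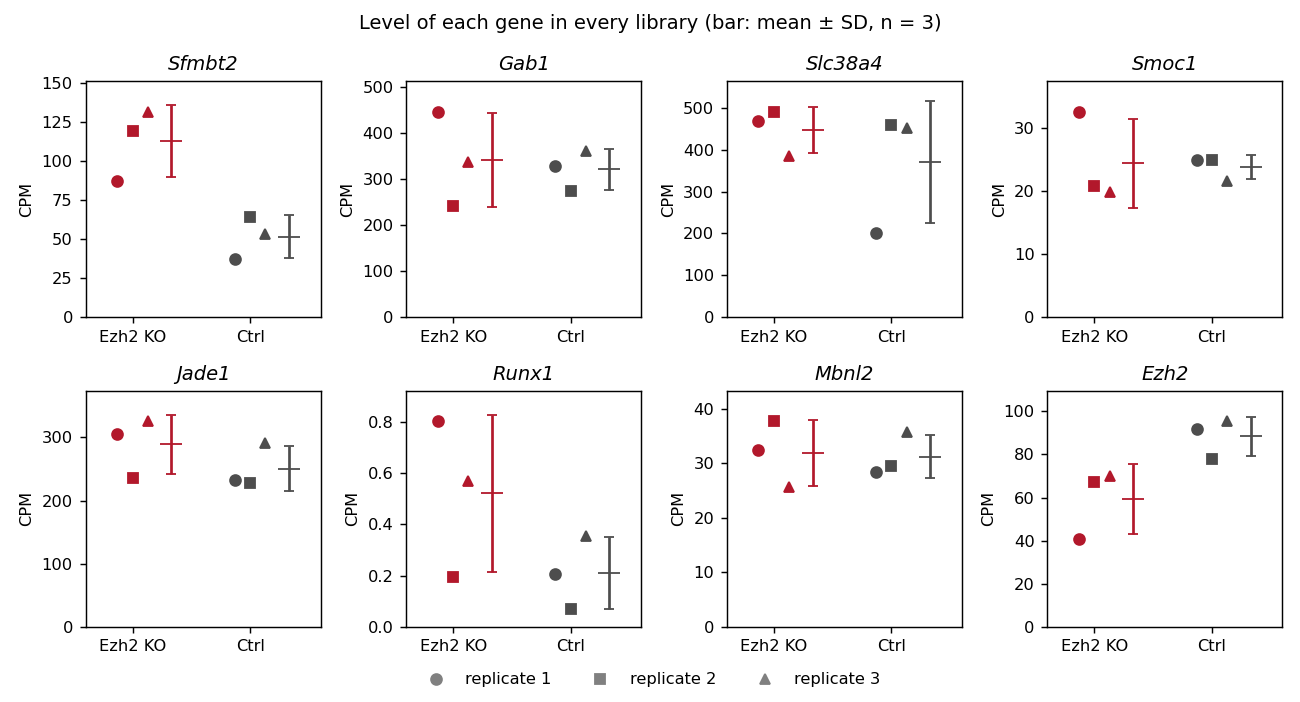
Level (CPM, linear axis from 0) of the 7 imprinted genes and of Ezh2 in each of 3 Ezh2 KO libraries (red) and 3 Ctrl libraries (grey); symbols give the replicate number and the bar at the side the mean ± SD. Sfmbt2 sits between 87.2 and 131.5 CPM in Ezh2 KO and between 37.2 and 64.2 CPM in Ctrl, while the groups overlap for each of the other 6 imprinted genes.

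Transcription around and inside Sfmbt2 was read for the same libraries. Gm13261, an annotated noncoding transcript that starts inside the 5′ end of Sfmbt2 and runs the other way, stood at 7.09, 8.61 and 5.95 CPM in Ezh2 KO and at 7.55, 7.66 and 6.58 CPM in Ctrl (log2 fold change -0.01, 95% interval -0.59 to 0.56). Its annotated exons share 0 bases with those of Sfmbt2. The groups overlapped for this divergent transcript. An intron of Sfmbt2 carries a large cluster of miRNA genes, of which 52 of 119 annotated were in the table, and their precursors together drew 17, 23 and 31 reads in Ezh2 KO and 29, 8 and 12 reads in Ctrl. Those reads are too few to compare, mature miRNAs are too short for this kind of library, and copies in the cluster are nearly identical. The nearest tested protein-coding genes on the chromosome were Itih5, a hyaluronan-binding matrix protein gene, with 4.01 to 7.19 CPM in Ezh2 KO and 3.92 to 6.40 CPM in Ctrl, and Pfkfb3, a regulator of glycolysis, with 3.24 to 14.95 CPM and 3.54 to 11.9 CPM. Both overlapped between groups, with log2 fold changes of 0.13 and 0.07.

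Jade1 (ENSMUSG00000025764), the other chromatin gene, is a scaffold of the HBO1 histone acetyltransferase complex. It stood at 305, 236 and 325 CPM in Ezh2 KO and at 232, 228 and 292 CPM in Ctrl. It was higher in Ezh2 KO in all 3 pairs, by 1.32, 1.03 and 1.11 times, but the groups overlapped. The log2 fold change of 0.20 had a 95% interval of -0.19 to 0.60 (edgeR unadjusted p = 0.266, adjusted p = 0.976). In the full set of tested genes 17.9% were higher in all 3 pairs. Among the 7 there were 3, Jade1, Runx1 and Sfmbt2, for which the lack of overlap fixes it.

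Gab1 (ENSMUSG00000031714), an adaptor that couples receptor tyrosine kinases such as MET and EGFR to SHP2 and PI3K, was an abundant transcript. It stood at 446, 242 and 336 CPM in Ezh2 KO and at 328, 274 and 361 CPM in Ctrl. Ezh2 KO libraries held both the highest and the lowest level, and the group difference was small against that spread (log2 fold change 0.09, 95% interval -0.43 to 0.61). Met, the receptor gene that signals through this adaptor, was scarce, at 1.71, 5.52 and 4.397 CPM in Ezh2 KO and 0.969, 2.06 and 1.63 CPM in Ctrl, and had an unadjusted p of 0.0276 in edgeR (log2 fold change 1.33, adjusted p = 0.976).

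Slc38a4 (ENSMUSG00000022464) encodes an amino acid transporter of the system A family that feeds the mouse placenta. It stood at 468, 491 and 386 CPM in Ezh2 KO and at 201.5, 459 and 451 CPM in Ctrl. Ctrl replicate 1 lay far below the other 5 libraries, which overlapped. The log2 fold change of 0.27 (95% interval -0.40 to 0.95) was -0.023 without that library. Ctrl replicate 1 was also an extreme of the first principal component, and its part in the level of Slc38a4 was not tested beyond leaving it out.

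Smoc1 (ENSMUSG00000021136) encodes a secreted calcium-binding protein of basement membranes that dampens BMP signalling. It stood at 32.6, 20.9 and 19.9 CPM in Ezh2 KO and at 24.9, 24.9 and 21.6 CPM in Ctrl. Ezh2 KO libraries lay on both sides of all Ctrl libraries, and the log2 fold change was 0.04 (95% interval -0.52 to 0.60). The PGCLC medium contained BMP2, so this antagonist was read in cells under BMP stimulation in both groups.

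Mbnl2 (ENSMUSG00000022139) encodes an RNA-binding regulator of alternative splicing. It stood at 32.4, 37.7 and 25.6 CPM in Ezh2 KO and at 28.4, 29.6 and 35.7 CPM in Ctrl, with groups that overlapped and a log2 fold change of 0.03 (95% interval -0.46 to 0.53). For Smoc1 and Mbnl2 the intervals leave out a 2-fold difference in either direction, while smaller differences lie inside them. Annotated opposite-strand genes share 266 exon bases with Gab1, 290 with Jade1, 106 with Runx1 and 86 with Mbnl2, and since strand use in counting is not stated, some reads of those 4 genes may belong to them.

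Runx1 (ENSMUSG00000022952), the transcription factor that founds definitive blood, was near the limit of detection. It drew 30, 5 and 23 reads in Ezh2 KO and 10, 2 and 10 reads in Ctrl, or 0.802, 0.193 and 0.568 CPM against 0.206, 0.0710 and 0.354 CPM. The group means were 0.521 ± 0.307 CPM in Ezh2 KO and 0.210 ± 0.141 CPM in Ctrl (SD, n = 3 each), and the groups overlapped. Each pair was higher in Ezh2 KO, by 3.89, 2.72 and 1.61 times, at counts where a few reads set the ratio. The log2 fold change was 1.33 with a 95% interval of -0.23 to 2.88 (edgeR unadjusted p = 0.0848; with the replicate block unadjusted p = 0.0234 and adjusted p = 0.490). Most libraries that carried Runx1 past the count filter were Ezh2 KO libraries, so its p-values are not independent of that filter. In edgeR with the block, Sfmbt2 and Runx1 were the 2 of the 7 at an unadjusted p under 0.05. Both were higher in Ezh2 KO, and 5.98% of all tested genes were higher at that level. In DESeq2 with the block, Runx1 had an unadjusted p of 0.101 (log2 fold change 1.35 ± 0.82 SE). Blood and endothelium markers were read beside it. Their summed level was 122 to 205.6 CPM in Ezh2 KO and 124 to 204 CPM in Ctrl, nearly all of it Pecam1, which germ cells and stem cells also express. Of the 9 markers tested, 2 had log2 fold changes above 0 and 7 below, and their median was -0.17. In edgeR 0 of them were at an unadjusted p under 0.05. The 2 above 0 were Etv2 (0.39) and Cdh5 (0.81), which also had the smallest p, and their groups overlapped. Tal1, a defining factor of blood progenitors, had 0 CPM in the 3 Ezh2 KO libraries and in 2 of 3 Ctrl libraries.

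**Figure D2:**
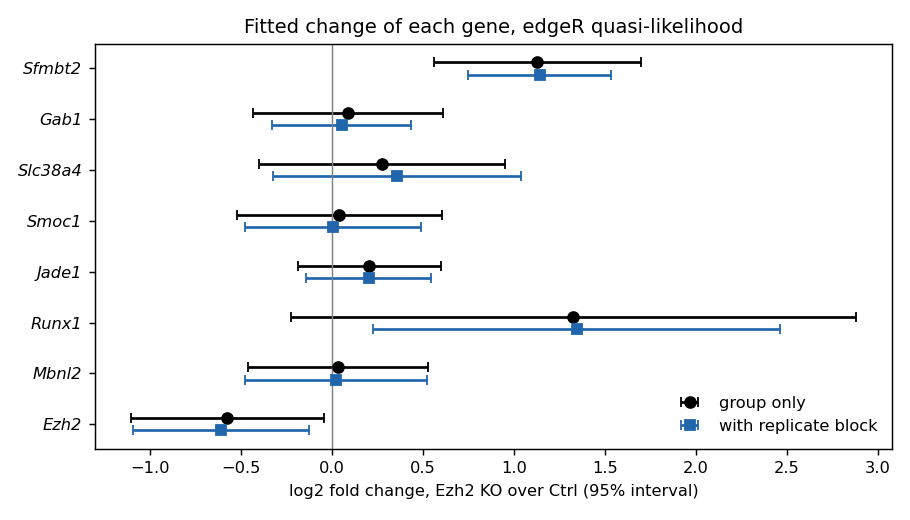
Log2 fold change (Ezh2 KO over Ctrl) with its 95% interval from edgeR, for the 7 imprinted genes and Ezh2, with group as the only term (black circles) and with the replicate number as a block (blue squares). In the fit without the block the interval of Sfmbt2, 0.56 to 1.70, is the only one among the 7 that lies clear of 0, and with the block that of Runx1, 0.23 to 2.46, does so too. Runx1 passed the count filter mostly through Ezh2 KO libraries.

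As a list the 7 genes had log2 fold changes from 0.03 to 1.33, each above 0 in the fit without a block, though Mbnl2 turned negative when no filter on low counts was used and Smoc1 did in DESeq2 with the block. Of all 16420 tested genes 8426 were above 0. The median of the 7 was 0.20, against 0.01 over all tested genes. The 7 were not independent of one another, with Pearson's r of log2 CPM from -0.273 to 0.898 between genes. The highest of the 6 libraries was an Ezh2 KO library for 7 of the 7 genes, as for 55.9% of all tested genes, but which one it was varied: replicate 1 for Gab1, Smoc1 and Runx1, replicate 2 for Slc38a4 and Mbnl2, and replicate 3 for Sfmbt2 and Jade1. The lowest library was an Ezh2 KO library for Gab1, Smoc1 and Mbnl2. Summed over the 7 genes the level was 1371, 1146 and 1225 CPM in Ezh2 KO and 852, 1080 and 1215 CPM in Ctrl. Without Sfmbt2 the sums were 1284, 1027 and 1094 CPM in Ezh2 KO and 815, 1016 and 1162 CPM in Ctrl. The share of Sfmbt2 in the sum was 6.36%, 10.4% and 10.7% in Ezh2 KO and 4.37%, 5.94% and 4.39% in Ctrl, with no overlap. That share is built from the level of Sfmbt2 itself, so it is not a separate result.

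Per kilobase of annotated exon, the 7 genes spanned more than 3 orders of magnitude. In Ezh2 KO the order was Slc38a4 (105 CPM per kb), Gab1 (67.1), Jade1 (34.0), Sfmbt2 (12.3), Smoc1 (7.00), Mbnl2 (2.66) and Runx1 (0.0433 CPM per kb). In Ctrl it was Slc38a4 (87.0 CPM per kb), Gab1 (63.2), Jade1 (29.5), Smoc1 (6.81), Sfmbt2 (5.65), Mbnl2 (2.602) and Runx1 (0.0175 CPM per kb). Sfmbt2 and Smoc1 thus stand in the opposite order in the 2 groups. Over the 6 libraries Slc38a4 (47.3 to 115 CPM per kb) overlapped with Gab1 (47.5 to 87.7), and Sfmbt2 (4.07 to 14.4) with Smoc1 (5.70 to 9.32). Jade1 (26.9 to 38.3), Mbnl2 (2.13 to 3.14) and Runx1 (0.00590 to 0.0667) overlapped with none of the others.

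**Figure D3:**
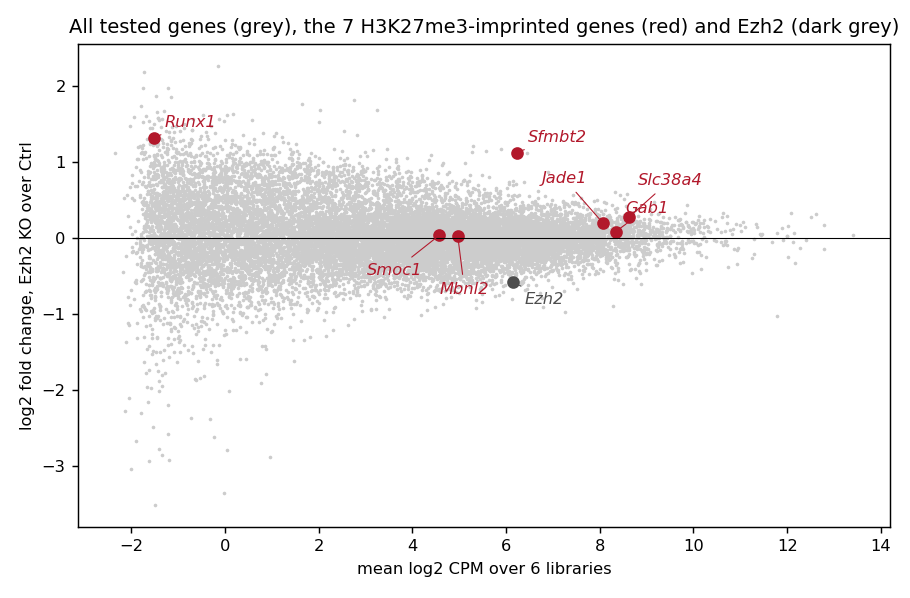
Mean log2 CPM over 6 libraries (x axis) against log2 fold change, Ezh2 KO over Ctrl (y axis), for the 16420 tested genes (grey dots), the 7 imprinted genes (red) and Ezh2 (dark grey). Sfmbt2, at a mean log2 CPM of 6.22 and a log2 fold change of 1.13, lies at the upper edge of the genes of its abundance, and Runx1 among scarce genes whose fold changes scatter widely.

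Close relatives of the 7 genes, which are not known for this kind of imprint, gave a background of the same protein families. Of 19 paralogs 15 were tested, 0 were called (0% of all genes), and 1 had an unadjusted p under 0.05 (2.8% of all tested genes). That was Slc38a5, an amino acid transporter gene, at 3.34, 2.90 and 4.545 CPM in Ezh2 KO and 2.35, 1.42 and 2.12 CPM in Ctrl (log2 fold change 0.87, edgeR adjusted p = 0.976). Sfmbt1, the only close relative of Sfmbt2, stood at 14.2, 16.6 and 19.5 CPM in Ezh2 KO and 12.7, 16.8 and 17.2 CPM in Ctrl (log2 fold change 0.11, 95% interval -0.43 to 0.65). Its groups overlapped, unlike those of Sfmbt2, but the fold changes of Sfmbt2 and Sfmbt1 were not tested against each other. Slc38a5 and Slc38a1 did not overlap between groups, beside 8.09% of all tested genes. Slc38a1, which lies in the same gene family as Slc38a4, stood at 122.7 to 154.6 CPM in Ezh2 KO and 155.0 to 185.1 CPM in Ctrl, with a log2 fold change of -0.30. The other tested paralogs, Gab2, Gab3, Jade2, Jade3, Mbnl1, Mbnl3, Slc38a2, Slc38a3, Slc38a6, Slc38a7, Slc38a9 and Slc38a10, overlapped between groups, with log2 fold changes of -0.63 to 0.42. Smoc2, Runx2, Runx3 and Slc38a11 were too scarce to test, at 0 to 0.296 CPM in any library. The median over the 15 was -0.03.

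The nearest tested genes on either side of the 7 were also read. Of 14 neighbours 0 were called (0% of all genes) and 0 had an unadjusted p under 0.05 in edgeR (1 with the replicate block). They were Itih5 and Pfkfb3 for Sfmbt2, Smarca5 and Usp38 for Gab1, Slc38a2 and Amigo2 for Slc38a4, Slc10a1 and Slc8a3 for Smoc1, Pgrmc2 and Sclt1 for Jade1, Clic6 and Setd4 for Runx1, and Uggt2 and Rap2a for Mbnl2. Their median log2 fold change was -0.0067, and 7 of the 14 were above 0. The groups did not overlap for 2 of the 14, beside 8.09% of all tested genes. These were Rap2a, a small GTPase gene, at 3.80, 5.29 and 5.41 CPM in Ezh2 KO and 3.65, 2.91 and 2.79 CPM in Ctrl, and Setd4, a methyltransferase gene, at 19.6, 13.4 and 16.3 CPM and 20.99, 21.5 and 20.98 CPM.

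**Figure D4:**
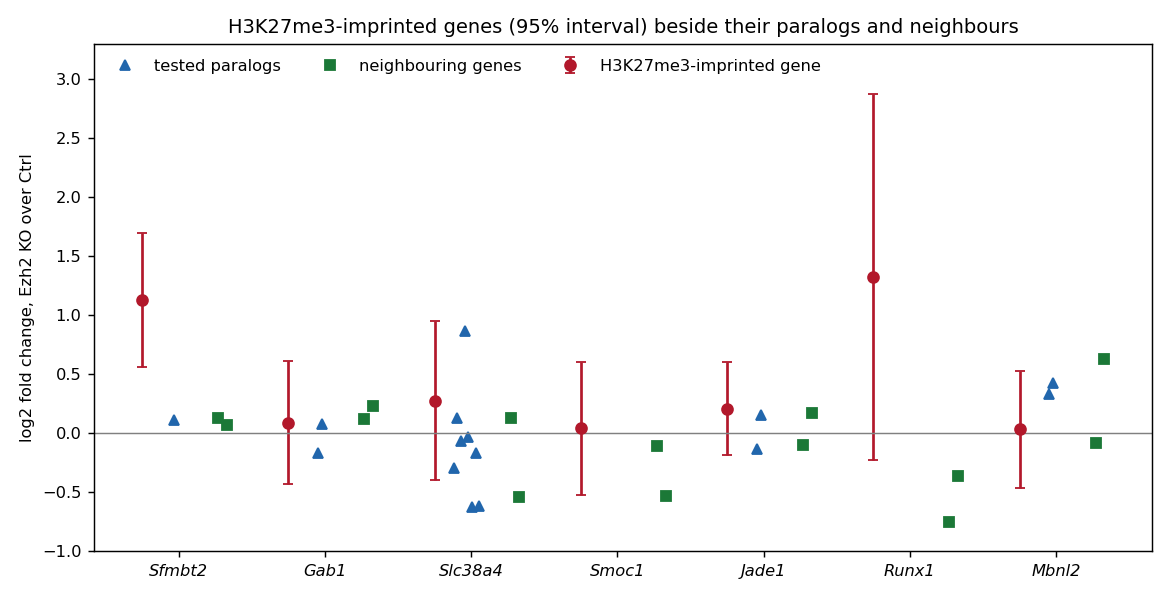
Log2 fold change (Ezh2 KO over Ctrl) of each imprinted gene with its 95% interval (red), of its tested paralogs (blue triangles) and of the nearest tested protein-coding gene on each side (green squares); Slc38a2 is both for Slc38a4, and Smoc1 and Runx1 had no tested paralog. Sfmbt2 at 1.13 lies above its paralog at 0.11 and its neighbours at 0.13 and 0.07.

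Another 15 genes with a reported maternal H3K27me3 imprint in the early mouse embryo had no member called by edgeR (0% of all genes). Of these 13 were tested, 0 had an unadjusted p under 0.05 (2, both lower, with the replicate block), 9 were above 0 and the median log2 fold change was 0.10. Sox21, a neural transcription factor gene, stood at 0.856, 0.772 and 1.51 CPM in Ezh2 KO and 1.73, 1.63 and 2.48 CPM in Ctrl, without overlap. Epas1, a hypoxia-induced factor, stood at 70.8, 24.8 and 47.3 CPM in Ezh2 KO and 28.1, 32.9 and 27.1 CPM in Ctrl, with overlap (log2 fold change 0.70). Xist, the RNA that silences an X chromosome and whose maternal copy is held down by this mark, was scarce, at 1.12, 6.64 and 3.29 CPM in Ezh2 KO and 2.17, 2.09 and 1.63 CPM in Ctrl. Clic6, an immediate neighbour of Runx1, was below 1 CPM in each library and overlapped. Genes imprinted through DNA methylation went the other way in their median, at -0.25 over 28 tested, with 4 at an unadjusted p under 0.05, all lower (0 called). They included Magel2 at 0.294, 0.309 and 0.321 CPM in Ezh2 KO and 0.618, 0.958 and 1.03 CPM in Ctrl, and Dlk1 at 1.04, 1.08 and 0.494 CPM and 4.39, 13.5 and 1.27 CPM. Of all 16420 tested genes edgeR called 0% and put 459 (2.8%) at an unadjusted p under 0.05, 205 of them lower. Groups of the 28 did not overlap for 6 with Ezh2 KO lower and 0 with Ezh2 KO higher. Over all tested genes these numbers were 661 and 668. The 2 kinds of imprinted gene were not tested against each other.

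No gene of the machinery behind the mark, and no partner of the 7 proteins, was called by edgeR, which called 0% of all genes. Among 12 PRC2 genes, 0 were called and the median log2 fold change was -0.05; Ezh2 had the smallest p and Phf1, an accessory subunit, the next, at 0.425 to 1.845 CPM in Ezh2 KO and 1.70 to 3.67 CPM in Ctrl. Among 9 genes of DNA methylation, H3K9 methylation and H3K27 demethylation, 0 were called. Dnmt3b, a de novo DNA methyltransferase, was at 55.0, 75.8 and 91.3 CPM in Ezh2 KO and 47.6, 44.4 and 51.9 CPM in Ctrl, without overlap (log2 fold change 0.63, edgeR unadjusted p = 0.0184, adjusted p = 0.976). Kdm6b, an H3K27 demethylase, was at 10.7 to 21.7 CPM and 16.5 to 30.8 CPM. Of 11 partners, 0 were called, and besides Met none had an unadjusted p under 0.05. Yy1 was at 11.5 to 26.9 CPM in Ezh2 KO and 19.7 to 20.6 CPM in Ctrl. Cbfb, the obligate partner of RUNX proteins, was at 32.2 to 46.3 CPM and 32.2 to 37.9 CPM. Ing4, a subunit of the HBO1 complex that contains JADE1, was at 22.4 to 25.1 CPM in Ezh2 KO and 26.7 to 29.3 CPM in Ctrl, without overlap and with a log2 fold change of -0.23.

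Because Sfmbt2, Slc38a4, Gab1 and Jade1 are active in extraembryonic tissue, trophoblast markers were read in the same libraries. In bulk RNA, more cells of a type and more RNA per cell cannot be told apart. The 12 markers summed to 250, 286 and 404 CPM in Ezh2 KO and 217, 173 and 487 CPM in Ctrl, mostly the keratins Krt8 and Krt18, and the sums overlapped. Of 11 tested, 2 had an unadjusted p under 0.05 in edgeR (2.8% of all tested genes), in opposite directions, and 0 were called (0% of all genes). Elf5, a trophoblast stem cell factor, was at 1.42, 1.31 and 0.766 CPM in Ezh2 KO and 0.371, 0.710 and 0.566 CPM in Ctrl, while Cdx2 was at 0.508, 0.270 and 0.346 CPM and 0.639, 0.922 and 0.991 CPM. Tpbpa, a marker of the spongiotrophoblast, had 0 CPM in each Ezh2 KO library and in 2 of 3 Ctrl libraries. The part of these cells in the level of Sfmbt2 was not tested. Markers of the somatic germ layers were at most 10.4 CPM when summed over a list: mesoderm 0.865 to 2.36 CPM in Ezh2 KO and 2.05 to 8.87 CPM in Ctrl, fibroblast and matrix 3.24 to 7.35 and 6.01 to 10.4 CPM, and endoderm 2.74 to 4.31 and 3.55 to 5.24 CPM. They held 1, 1 and 0 genes at an unadjusted p under 0.05, each lower in Ezh2 KO (Msx1 and Col1a2), with 0 called. The next smallest p in these lists was that of Mixl1 (log2 fold change -0.08) and Col1a1 (-0.87), and in endoderm Sox17 (-1.63) and Gata6 (-0.88) came first.

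The genes whose pattern over the 6 libraries was most like that of Sfmbt2, by Pearson's r of log2 CPM, were Gm15363 (r = 0.988), Ctdspl (r = 0.982) and Trpc1 (r = 0.979). Ctdspl, a phosphatase gene, stood at 6.47, 8.61 and 9.93 CPM in Ezh2 KO and 4.08, 5.21 and 4.63 CPM in Ctrl. Trpc1, a cation channel gene, stood at 0.321, 0.541 and 0.494 CPM and 0.144, 0.248 and 0.248 CPM. Gm15363 was as scarce as Trpc1, at 0.348 to 0.425 CPM and 0.165 to 0.284 CPM. Trpc1 drew 12 to 20 reads in Ezh2 KO libraries and 7 in each Ctrl library, and Gm15363 drew 11 to 17 and 7 to 8. For both, Ctrl replicate 1 is lowest through its larger total count. All 3 share with Sfmbt2 the order of Ezh2 KO above Ctrl, Ezh2 KO replicate 1 as the lowest of its group and Ctrl replicate 1 as the lowest of its own. They were picked for the highest r among 16420 genes, and r is given as a description.

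**Figure D5:**
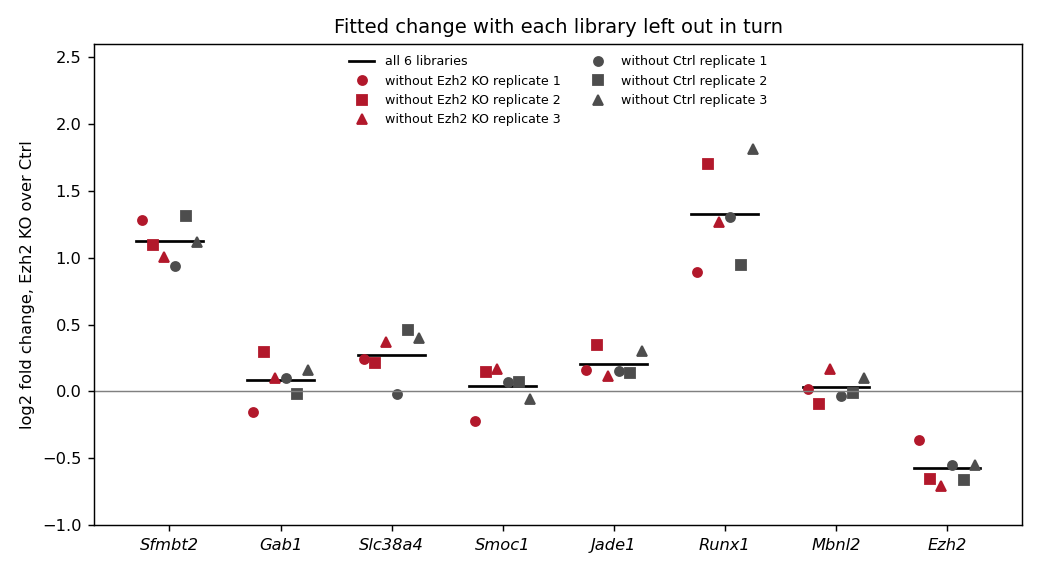
Log2 fold change (Ezh2 KO over Ctrl) from edgeR for each imprinted gene and Ezh2 with all 6 libraries (black line) and with each library left out (red, an Ezh2 KO library; grey, a Ctrl library; symbols give the replicate). Sfmbt2 stays between 0.94 and 1.31, while Gab1, Slc38a4, Smoc1 and Mbnl2 fall on both sides of 0.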

How the data were processed

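The authors deposited 1 table of raw read counts per Ensembl gene for the 6 libraries. Tools named per the submitters' processing notes are featureCounts, TopHat2 2.0.11, Trimmomatic 0.33 and CASAVA 1.8.4, with builds mm9 and NCBIM37; settings, strand use and annotation version were not given in the sources used here, so reads of overlapping opposite-strand genes cannot be told apart. Symbols, neighbours, exon lengths and GC content came from GENCODE M21 (GRCm38, another build; 32919 of 37991 IDs matched), and no coordinates were carried between builds. RefSeq windows are on GRCm38.p6.

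Genes kept by filterByExpr (minimum count 10) were tested with edgeR 4.0.16 (TMM, robust quasi-likelihood F-test, group as the only term, two-sided, Benjamini-Hochberg over 16420 genes, threshold 0.05) under R 4.3.3, tested on simulated data first. Standard errors derive from the F statistic. Alternatives used DESeq2 1.42.0, limma 3.58.1, other filters and scalings, the replicate block, a GC offset (loess, span 0.5; 95.2% of tested genes had a GC value) and omitted libraries. The genes and all lists were chosen with earlier results of these data known, and no list received a set test. Named genes were the 7, Ezh2, all paralogs, the 2 of smallest p in each list, neighbours on either side and the 3 most like Sfmbt2; others (Pecam1, Tal1, Tpbpa, Xist, Clic6, Yy1, Cbfb, Krt8, Krt18, Gm13261) were singled out after their values were seen. Deviations of same-numbered libraries correlated at 0.58, 0.37 and 0.19 for pairs 1 to 3, each over 0.1. Pair ratios and block fits are therefore given beside the main test, which used no pairing. Among different-numbered libraries the correlations were -0.52 to 0.30, and the highest, Ezh2 KO replicate 2 with Ctrl replicate 3, was above that of pair 3.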

Additional observations from a re-analysis of the deposited data

How the results depend on the processing

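Sfmbt2 stayed higher in Ezh2 KO under the 16 alternatives run, with log2 fold changes of 0.90 to 1.31, and was called only by DESeq2 with the replicate block (1.13), the 1 of the 7 genes called there. That fit called 50 genes in all and DESeq2 without the block 5, against 0 in edgeR; the cause was not tested. The replicate block changed no other call among the 7 genes. The lowest value of Sfmbt2, 0.90, came without Ezh2 KO replicate 2 and Ctrl replicate 1, the extremes of the first component. Over the libraries r with that component was 0.684 for Sfmbt2, 0.656 for Slc38a4 and -0.658 for Gab1. The part of that component in the level of Sfmbt2 was not tested. With each library left out, log2 fold changes ran from -0.15 to 0.29 for Gab1, -0.023 to 0.46 for Slc38a4, -0.23 to 0.17 for Smoc1 and -0.10 to 0.17 for Mbnl2, so their signs are not settled. The sign of Slc38a4 (-0.089) and Mbnl2 (-0.16) also turned without Ezh2 KO replicate 2 and Ctrl replicate 1, the extremes of the first component, that of Mbnl2 with no filter (-0.0067) and that of Smoc1 in DESeq2 with the replicate block (-0.0060). Left-out libraries gave 0.94 to 1.31 for Sfmbt2, 0.11 to 0.34 for Jade1, 0.89 to 1.81 for Runx1 and -0.71 to -0.37 for Ezh2, with 0 genes called in each. Runx1 could not be fitted under the stricter filter (1 CPM or more in 3 libraries). Runx1 had 5 to 30 reads in Ezh2 KO libraries and 2 to 10 in Ctrl libraries and also the widest spread within groups of the 7 genes (4.15 times in Ezh2 KO, 4.99 times in Ctrl); how much depth and spread each limit its value was not tested.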
